A study of Mus musculus with 6 samples.

Results

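The genes described here encode the proteins of the cytosolic ribosome in T cells sorted from mouse skin. They were chosen by name: every row of the deposited table whose symbol starts with Rpl, Rps or Rplp followed by a digit, or equals Rpsa, without symbols that carry "-ps" (pseudogenes) and without the S6 kinases named Rps6k. The rule took 84 of 15106 gene rows. Of these, 83 name a ribosomal protein, 50 of the large and 33 of the small subunit. The remaining row, Rps19bp1, was taken by its spelling and encodes a protein that binds Rps19.

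The study sequenced RNA of regulatory T cells (Tregs, the suppressive CD4 T cells that depend on the transcription factor FOXP3) and of effector T cells (Teffs), both sorted from skin, and the design asks how both populations differ in that tissue. There were 4 Treg libraries and 2 Teff libraries, all from FOXP3-GFP reporter mice at 6 weeks of age, so both groups share the reporter. The labels give neither the gates of the sort, nor the number of animals in a library, nor whether libraries came from separate animals, so p-values measure the spread between these libraries, which may in part be technical. Genes held 4902126 to 7468778 counts per library. Foxp3 stood at 103 to 233 CPM (counts scaled to library size) in the Treg libraries and at 11.3 and 7.17 CPM in the Teff pair. The summed level of 6 T cell markers was 3928 to 7867 CPM in Tregs and 7337 to 7876 CPM in Teffs. Markers of other skin cells were uneven: 5 fibroblast genes summed to 1951 CPM in Treg 3 and 146 CPM in Teff 1 but to 3.85 to 8.30 CPM in the other 4 libraries, and 5 keratinocyte genes to 685 CPM in Treg 3, 98.0 CPM in Teff 1, 39.1 CPM in Teff 2 and 0.285 to 20.7 CPM elsewhere. Of 2 endothelial genes the summed level was 85.0 and 121 CPM in Teffs and 16.1 to 66.1 CPM in Tregs. Most of it came from Pecam1, at 82.3 and 121 CPM in Teffs and 16.1 to 58.2 CPM in Tregs. The other gene, Cdh5, did not share that order, at 7.89 CPM in Treg 3, 2.65 CPM in Teff 1 and 0 CPM elsewhere. Of 3 B cell genes the summed level was 11.3 and 10.9 CPM in Teffs and 0 to 3.68 CPM in Tregs. Of the 2 CD8 genes, the summed level was 142 and 93.6 CPM in Teffs and 0.180 to 65.6 CPM in Tregs.

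A ribosome is built from a large subunit, which joins amino acids, and a small subunit, which reads the messenger RNA. Each holds 1 copy of most of its proteins, and the cell adjusts their supply together: many of their messenger RNAs start with a run of pyrimidines (the TOP motif), through which mTOR signalling controls their translation. Resting T cells keep ribosome production low and raise it after antigen stimulation, and Tregs are known to be sensitive to the strength of mTOR signalling.

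Ribosomal protein transcripts were not called in either direction between Tregs and Teffs. Of the 84 genes, 80 had enough counts to be tested and 4 (Rpl10l, Rpl30, Rpl34 and Rpl39l) did not. In edgeR's quasi-likelihood test 0 of 80 had a Benjamini-Hochberg adjusted p under 0.05, against a background of 0.0425% of 11775 tested genes (5 genes). No member reached an unadjusted p of 0.05 in edgeR or in DESeq2, where 4.73% and 6.04% of all tested genes did, and DESeq2 also called 0 members at an adjusted p under 0.05, against 1.56% of all tested genes. The lowest unadjusted p was 0.202 in edgeR (Rpl27), and the lowest adjusted p over the 80 was 0.99998. In the authors' deposited table the lowest p of the 84 was 0.252, again for Rpl27, and each FDR was 1. The log2 fold change, coded Treg minus Teff and given below with its standard error (SE) after ±, was below 0 for 49 members and above 0 for 31. Its median was -0.15 over the members and 0.07 over all tested genes, of which 46.6% were below 0. Without Treg 1 the members' median was 0.0071, with 39 of 80 below 0, and without Treg 4 it was -0.35, with 60 of 79 below 0. With 5 calls among all tested genes, 0 calls among the members does not show that their levels were equal. In bulk samples such as these, fewer cells of a type and less RNA per cell cannot be told apart.

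**Figure D1:**
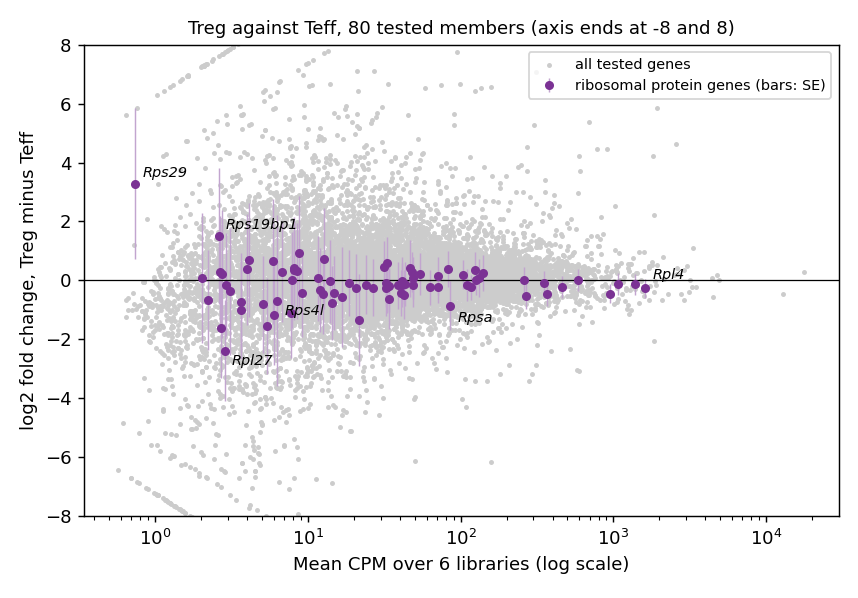
Each point is 1 tested gene, with the mean CPM over 6 libraries on the x axis (log scale) and the log2 fold change of Treg minus Teff on the y axis. The 80 ribosomal protein genes are purple with bars of 1 SE, and all tested genes are grey. The 17 members at or above 100 CPM lie between -0.52 and 0.36, while bars are longest for members with few counts.

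Precision followed the level. Of the 80 tested members, 53 had a mean of at least 10 CPM over the 6 libraries, and 52 of these (98.1%) had a fold change of less than 1 on the log2 scale in either direction, against 75.8% of the 8944 tested genes at or above that level. The exception was Rpl19. The median size of the log2 fold change was 0.23 for these members and 0.52 for all such genes. At or above 100 CPM there were 17 members, with log2 fold changes from -0.52 (Rpl13a) to 0.36 (Rpl22) and standard errors of 0.31 to 0.65. The 95% intervals of these 17 reached from -1.57 to 1.78, which bounds the change in a single one of them. For the 27 tested members under 10 CPM the standard errors were 1.49 to 2.90, and a 2-fold difference was not detectable with such errors. The same held for some members above that level, such as Rpl27a and Rps13, each with a standard error of 1.71.

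Summed over the 84 rows, members spread widely among the Treg libraries and little between the Teff libraries. Their share of the counts in genes was 0.565%, 0.934%, 0.893% and 1.26% in Treg 1 to Treg 4 and 1.04% and 1.13% in Teff 1 and Teff 2. Treg 1 was the lowest and Treg 4 the highest of all libraries, and the Teff libraries lay between Treg 2 and Treg 4. The mean was 0.912% ± 0.282 (SD, n = 4) in Tregs and 1.08% ± 0.0604 (SD, n = 2) in Teffs, a ratio of 0.841. That ratio was 0.947 without Treg 1 and 0.735 without Treg 4. The difference between the group means was smaller than the SD over the Treg libraries. Wilson 95% intervals were narrow, for example 0.560% to 0.571% in Treg 1, and cover only counting error, as copies made by PCR are no independent molecules.

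**Figure D2:**
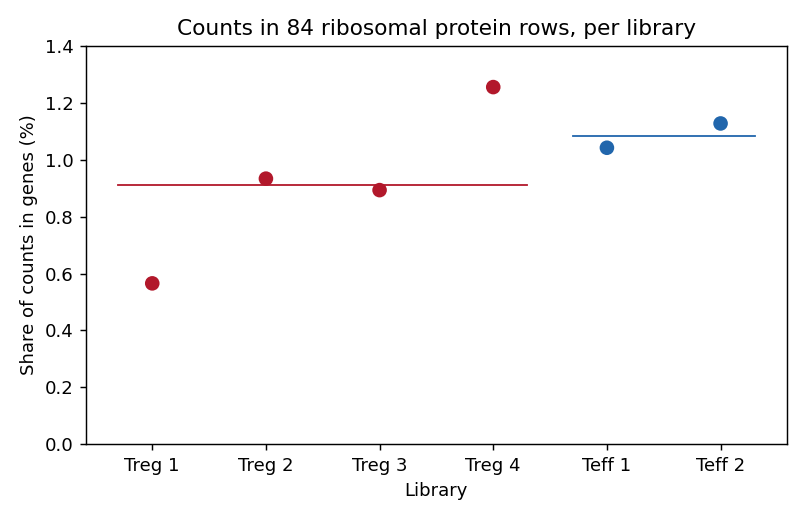
Points give the share of counts in genes (%) that fell in the 84 rows, by library, with Treg libraries in red and Teff libraries in blue. Bars are Wilson 95% intervals, shorter than the points, and lines are group means (0.912% and 1.08%), and Treg 1 at 0.565% and Treg 4 at 1.26% enclose all other libraries.

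Both subunits contributed to about the same extent. Summed over 50 rows, the large subunit stood at 3380, 4516, 4342 and 6106 CPM in Treg libraries 1 to 4, against 5376 and 5382 CPM in the Teff pair. The small subunit, with 33 rows, stood at 2812, 4875, 4398 and 6515 CPM in Tregs and at 4928 and 5328 CPM in Teffs. The ratio of large to small subunit counts was 1.01 ± 0.129 (SD, n = 4) in Tregs and 1.05 ± 0.0571 (SD, n = 2) in Teffs, and it was highest in Treg 1, at 1.202. The median log2 fold change was -0.16 over the 46 tested large-subunit genes and -0.14 over the 33 small-subunit genes.

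Treg 1 was low and Treg 4 high for many of the members with more counts. Treg 1 was the lowest of the 6 libraries for 40 of the 53 members at or above 10 CPM, while it was lowest for 30.6% of all tested genes at that level. Among the 17 members at or above 100 CPM it was lowest for 15, against 18.99% of all such genes. Treg 4 was the highest library for 29 of the 53 members and for 14.6% of all genes. From the median of the 6 libraries, the typical one of the 53 members deviated by -0.69 in Treg 1 and by 0.36 in Treg 4 on the log2(CPM + 0.5) scale. The corresponding medians over all genes at or above 10 CPM were -0.05 and 0.01. The level in Treg 4 over that in Treg 1 had a median of 2.52 over the 53 members. Treg 1 also had the fewest genes with a count (9602, against 9838 to 13197 in the others) and the smallest share of entries with several alignments (61.2%, against 61.7% to 66.2%), and the part of these in the low values was not tested. Treg 4 had the highest summed level of 4 macrophage, dendritic and Langerhans cell genes (523 CPM, of which Lyz2 464 CPM, against 106 to 232 CPM in the others). Itgax (24.7 CPM) and Clec10a (33.7 CPM) were also highest there. Csf1r went the other way, at 0.713 CPM in Treg 4 and highest in Treg 1 (78.1 CPM). The part of such cells in the high values of Treg 4 was not tested.

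Not every member followed that order. Treg 1 was not the lowest library for 13 of the 53 (Rpl10, Rpl15, Rpl4, Rpl5, Rpl6, Rpl7a, Rpl7l1, Rpl9, Rplp0, Rplp2, Rps12, Rps27l and Rps6), and it was the highest for 4 of them. These 4 were Rpl15, Rpl6, Rpl7a and Rps12, named here after their values were seen. Rpl15, a large-subunit protein, stood at 96.3, 15.04, 63.3 and 29.96 CPM in Treg libraries 1 to 4, against 57.1 and 19.96 CPM in Teff libraries 1 and 2. Its high libraries, Treg 1 and Treg 3, were not the high libraries of the members in sum. Rpl7a, another large-subunit protein, was nearly level, at 37.2, 34.4, 31.4 and 24.4 CPM in Treg libraries 1 to 4, against 30.6 and 36.4 CPM in Teff libraries 1 and 2.

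**Figure D3:**
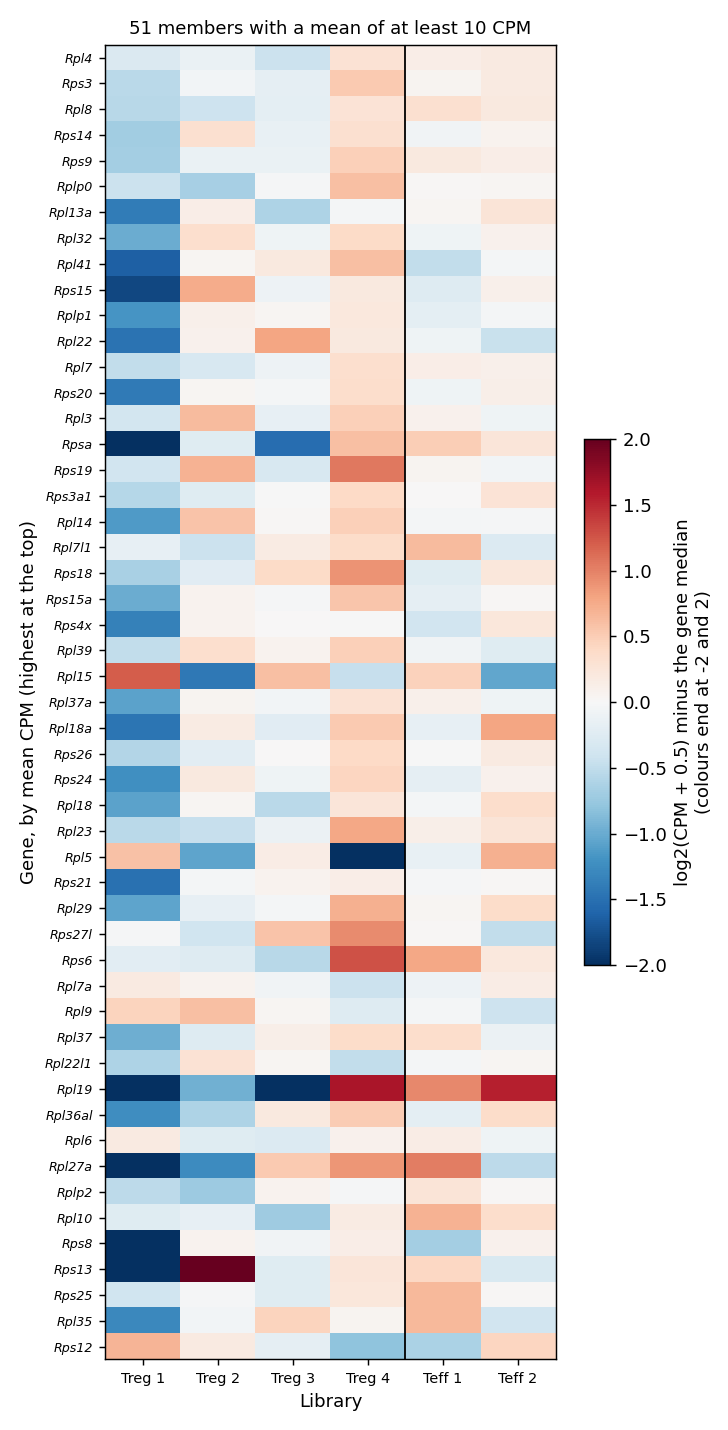
Rows are 51 members with a mean of at least 10 CPM, ordered by that mean, and columns are the 6 libraries, with a line between Tregs and Teffs. Colour is log2(CPM + 0.5) minus the median of that gene over the libraries, from -2 (blue) to 2 (red), and the Treg 1 column is blue for most rows while the Treg 4 column is mostly red.

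A small number of genes carried much of the signal. Rpl4, Rps3, Rpl8 and Rps14 held 47.2% of the 364516 counts of all members. Rpl4 forms part of the wall of the tunnel through which the new protein leaves, and stood at 1341, 1497, 1225 and 2006 CPM in Treg libraries 1 to 4, against 1809 and 1859 CPM in Teff libraries 1 and 2. The Teff values lay between the highest Treg library and the other 3, and the log2 fold change was -0.27 ± 0.31. Rps3 sits where the messenger RNA enters the small subunit, and stood at 938, 1307, 1206 and 1947 CPM in Treg libraries 1 to 4, against 1414 and 1542 CPM in Teff libraries 1 and 2. The log2 fold change of Rps3 was -0.13 ± 0.36, and the Teff libraries lay within the Treg range. Rpl8, which lies close to the centre where peptide bonds form, stood at 658, 726, 841 and 1173 CPM in Treg libraries 1 to 4, against 1209.6 and 1111 CPM in Teff libraries 1 and 2. Treg 4 alone reached the Teff range, and the log2 fold change was -0.45 ± 0.33 with a 95% interval of -1.21 to 0.32. Rps14, a protein of the small-subunit platform, had group means of 589.7 ± 179 CPM in Tregs (SD, n = 4) against 589 ± 36.4 CPM in Teffs (SD, n = 2), with a log2 fold change of 0.001 ± 0.37, and its libraries were at 363, 733, 529 and 733 CPM (Treg 1 to Treg 4) and 563 and 615 CPM (Teff 1 and Teff 2).

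The stalk of the large subunit, which draws in the elongation factors, is formed by Rplp0 at its base and pairs of Rplp1 and Rplp2. Rplp0 stood at 266, 226, 350.4 and 540.4 CPM in Treg libraries 1 to 4, against 364 and 369 CPM in Teff libraries 1 and 2. The log2 fold change was -0.09 ± 0.42, and its sign turned without Treg 1 (0.021) and without Treg 2 (0.072). Rplp1 stood at 59.7, 146, 139.9 and 159 CPM in Treg libraries 1 to 4, against 119 and 133 CPM in Teff libraries 1 and 2. Its group means of 126 ± 44.9 CPM in Tregs (SD, n = 4) against 126 ± 9.86 CPM in Teffs (SD, n = 2) differed by far less than the spread, at a log2 fold change of 0.01 ± 0.49. Rplp2 stood at 11.2, 9.6, 17 and 15.98 CPM in Treg libraries 1 to 4, against 19.5 and 16.5 CPM in Teff libraries 1 and 2. Its log2 fold change was -0.42 ± 1.25, so none of the 3 stalk genes was apart between groups beyond the spread.

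Of the large-subunit genes described next, Rpl3, Rpl13a, Rpl38 and Rpl29 had groups that overlapped, and Rpl10 did not. Rpl3 lies beside the peptidyl transferase centre and had group means of 109 ± 35.6 CPM in Tregs (SD, n = 4) against 94.95 ± 8.75 CPM in Teffs (SD, n = 2) (log2 fold change 0.198 ± 0.49). Rpl13a, which interferon-gamma can release from the ribosome to silence certain messenger RNAs, stood at 115, 332, 197 and 292 CPM in Treg libraries 1 to 4, against 311 and 359 CPM in Teff libraries 1 and 2. Its log2 fold change of -0.52 ± 0.46 was the lowest of the 17 members at or above 100 CPM, yet Treg 2 lay within the Teff range. Rpl10, one of the last proteins to join the large subunit, stood at 11.4, 12, 8.06 and 15.1 CPM in Treg libraries 1 to 4, against 22.2 and 17.2 CPM in Teff libraries 1 and 2. All Treg libraries lay below both Teff libraries for Rpl10, with a log2 fold change of -0.76 ± 1.26 and an edgeR p of 0.562. Rpl38, whose loss changes translation of Hox genes in mouse embryos, stood at 0.541, 7.2, 1.93 and 9.27 CPM in Treg libraries 1 to 4, against 2.38 and 3.49 CPM in Teff libraries 1 and 2. At these low levels its log2 fold change was 0.69 ± 1.93. Rpl29 stood at 14.97, 28.3, 30.7 and 51.9 CPM in Treg libraries 1 to 4, against 32.7 and 40.9 CPM in Teff libraries 1 and 2, and its log2 fold change was -0.22 ± 0.89.

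Rpl5 and Rpl11 travel with the 5S ribosomal RNA and bind Mdm2, the brake on p53, when ribosome assembly is disturbed. They did not keep to the same library order. Rpl5 stood at 52.7, 16.5, 38.9 and 7.28 CPM in Treg libraries 1 to 4, against 31.4 and 57.6 CPM in Teff libraries 1 and 2. Treg 4, the highest library for 29 of the 53 members at or above 10 CPM, was the lowest for Rpl5. Rpl11 stood at 0, 3.68, 1.23 and 6.42 CPM in Treg libraries 1 to 4, against 5.03 and 2.33 CPM in Teff libraries 1 and 2. It was not counted in Treg 1, where 3 counts would correspond to 0.541 CPM. Log2 fold changes were -0.62 ± 1.01 for Rpl5 and -0.37 ± 2.15 for Rpl11.

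Among small-subunit genes, Rpsa, which also acts as a laminin receptor at the cell surface, varied widely among the Treg libraries. It stood at 14.4, 79.5, 32.4 and 143 CPM in Treg libraries 1 to 4, against 133 and 112 CPM in Teff libraries 1 and 2. The Treg values ranged from far below both Teff libraries to above them, and the log2 fold change was -0.86 ± 0.83. Rps19, which is mutated in the inherited anaemia of the Diamond-Blackfan type, stood at 52.5, 112, 55.05 and 143 CPM in Treg libraries 1 to 4, against 71.2 and 66.1 CPM in Teff libraries 1 and 2. Treg 2 and Treg 4 stood above the Teff libraries and Treg 1 and Treg 3 below them, with a log2 fold change of 0.400 ± 0.61. Rps6, the protein that S6 kinase phosphorylates downstream of mTOR, stood at 21.8, 21.1, 17.2 and 62.1 CPM in Treg libraries 1 to 4, against 43.8 and 29.5 CPM in Teff libraries 1 and 2. Treg 4 stood above both Teff libraries and the other 3 Treg libraries below them, with a log2 fold change of -0.26 ± 0.94. Rps20, part of the head of the small subunit, had group means of 107 ± 45.1 CPM in Tregs (SD, n = 4) against 119 ± 11.6 CPM in Teffs (SD, n = 2) (log2 fold change -0.15 ± 0.55). Rps27a is made as a fusion with ubiquitin and stood at 0.1804, 0.96, 11.6 and 14.3 CPM in Treg libraries 1 to 4, against 5.69 and 2.91 CPM in Teff libraries 1 and 2. Treg 1 and Treg 2 were near 0 and Treg 3 and Treg 4 above both Teff libraries, and the log2 fold change was 0.65 ± 2.12.

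Apart from Rpl19 and Rps13, the tested members farthest from 0 had a mean under 10 CPM. Among the lowest log2 fold changes were those of Rpl27 (-2.38 ± 1.71), Rpl21 (-1.55 ± 1.62), Rpl19 (-1.35 ± 1.57) and Rpl36 (-1.16 ± 1.71). Rpl27 stood at 1.08, 0.32, 1.75 and 1.57 CPM in Treg libraries 1 to 4, against 9.53 and 2.91 CPM in Teff libraries 1 and 2. Both Teff libraries were above all Treg libraries, but the Teff libraries were also far apart from each other. Rpl19 stood at 0.722, 7.2, 3.16 and 46.1 CPM in Treg libraries 1 to 4, against 28.99 and 43.8 CPM in Teff libraries 1 and 2. Treg 4 lay above both Teff libraries and the other 3 Treg libraries far below them. The highest log2 fold changes were those of Rps29 (3.27 ± 2.56), Rps19bp1 (1.504 ± 2.302), Rpl12 (0.93 ± 1.94), Rps13 (0.74 ± 1.71) and Rpl38. Rps29 had 28 counts in all Treg libraries and 1 in both Teff libraries, a ratio of 13.9 per gene count with an exact 95% counting interval of 2.29 to 567. Its counts came from Treg 2 and Treg 4 (12 and 14) with 2 in Treg 3, so the interval does not cover the spread between libraries. Rps13 stood at 1.44, 41.1, 6.84 and 9.84 CPM in Treg libraries 1 to 4, against 11.1 and 6.59 CPM in Teff libraries 1 and 2, so that Treg 2 alone carried its difference.

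Ranges of the groups did not overlap for 4 of the 80 tested members (5%), in each case with Tregs lower, against 15% of all tested genes (9.49% with Tregs lower and 5.51% with Tregs higher). They were Rpl10, Rpl21, Rpl27 and Rps7, of which Rps7 is named after its values were seen. Rps7, a small-subunit protein that can bind Mdm2, stood at 4.15, 4.96, 4.03 and 9.27 CPM in Treg libraries 1 to 4, against 13.4 and 10.9 CPM in Teff libraries 1 and 2. Rpl21, whose messenger has many genomic copies, stood at 3.25, 4.96, 1.75 and 3.28 CPM in Treg libraries 1 to 4, against 13.2 and 6.202 CPM in Teff libraries 1 and 2. Rpl21, Rpl27 and Rps7 had a mean under 10 CPM, and 1 of the 53 members at or above 10 CPM (Rpl10) did not overlap, against 14.6% of all genes at that level. On CPM from upper-quartile scaling 9 of the 80 did not overlap, against 15.7% of all tested genes.

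Several ribosomal proteins have a second gene, and 7 of the 84 rows carry the symbol of such a paralog. Among these rows is Rps4l, which is annotated as a pseudogene and described below. Rpl22, which is needed for the development of alpha-beta T cells, stood at 44.7, 134, 218 and 143 CPM in Treg libraries 1 to 4, against 118 and 92.3 CPM in Teff libraries 1 and 2. Its paralog Rpl22l1 stood at 16.6, 31.4, 26.5 and 18.1 CPM in Treg libraries 1 to 4, against 25.02 and 26.4 CPM in Teff libraries 1 and 2. The ratio of Rpl22 to Rpl22l1 counts was 2.70, 4.27, 8.25 and 7.91 in Treg 1 to Treg 4 and 4.71 and 3.5 in Teff 1 and Teff 2, so the Treg values enclosed both Teff values. Log2 fold changes were 0.36 ± 0.62 for Rpl22 and -0.15 ± 1.003 for Rpl22l1. Rps27l, a p53 target that resembles Rps27, stood at 28.5, 21.8, 43.1 and 56.1 CPM in Treg libraries 1 to 4, against 29.4 and 20.3 CPM in Teff libraries 1 and 2, with a log2 fold change of 0.59 ± 0.899. Rpl7l1 had group means of 59.5 ± 14.3 CPM in Tregs (SD, n = 4) against 70.03 ± 29.96 CPM in Teffs (SD, n = 2), and Rpl36al of 19.3 ± 9.91 CPM in Tregs (SD, n = 4) against 23.1 ± 6.59 CPM in Teffs (SD, n = 2). Rpl10l and Rpl39l, known from the testis, were nearly absent: Rpl10l had 4 counts, all in Treg 2, and Rpl39l had 11 in Teff 1 and 2 in Treg 2.

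Rps4l, which resembles Rps4x and which GENCODE M21 lists as a transcribed processed pseudogene, was uneven among the Treg libraries. Its counts were 0, 0, 119 and 0 in Treg 1 to Treg 4 and 82 and 31 in Teff 1 and Teff 2. In the Treg libraries at 0, a level of 3 counts would correspond to 0.428 to 0.541 CPM, while Treg 3 stood at 20.9 CPM. The log2 fold change over all libraries was -0.69 ± 2.904. The libraries with Rps4l counts include those with the highest fibroblast and keratinocyte markers, Treg 3 and Teff 1. In Teff 2, which had 31 counts of Rps4l, the fibroblast markers summed to 3.88 CPM and the keratinocyte markers to 39.1 CPM, and the part of other cells in this pattern was not tested.

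**Figure D4:**
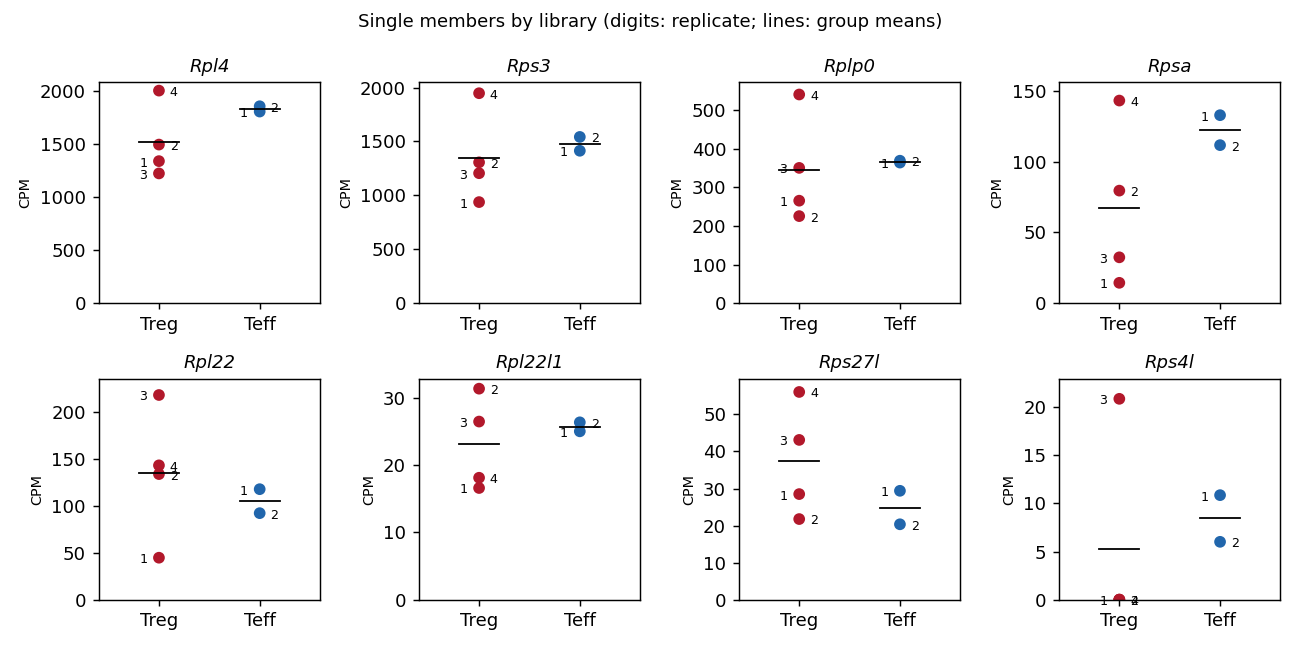
Each panel gives the CPM of 1 gene in every library (y axes start at 0), with Tregs in red, Teffs in blue, replicate numbers beside the points and lines at the group means. In all 8 panels Treg points enclose or overlap the Teff points, and for Rps4l Treg 1, Treg 2 and Treg 4 lie on top of each other at 0.

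Levels per length of transcript spanned more than 3 orders of magnitude, although ribosomes hold most of these proteins in equal number. The mean CPM per kb of 1 annotated transcript (GENCODE M21, GRCm38) was among the highest for Rpl8 (1120.2), Rpl4, Rps14 and Rps3. It was lowest, among genes that are not paralogs, for Rpl30 (0.307) and Rpl34 (0.652), so that Rpl8 exceeded Rpl30 by 3643-fold. Among tested members Rps29 stood lowest, at 1.91 CPM per kb. The other low ones named by rule were Rpl21 (2.93), Rps23 (2.95), Rps19bp1 (3.12) and Rpl10a (3.23). Some of the transcripts used are much longer than their coding part, with 1856 bases for Rpl21 (480 coding) and 3706 for Rps20 (357 coding). A longer transcript lowers the level per kb, and the part of this choice in the order was not tested.

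Ribosomal protein genes are among the most copied genes of mammalian genomes, since their messengers were often inserted as processed pseudogenes. Of the 84 members, 81 shared at least 1 word of 50 bases with an annotated pseudogene, against 46 of 82 genes of ribosome assembly and translation. Over a member's transcript, the median share of 50-base words that lie in no other gene's transcript was 51.8%, against 99.3% in those genes. Rpl7a shared words with 120 pseudogenes, Rpl21 and Rpl29 with 81 each. The share of words in no other gene also depends on the transcript used, and was 73.8% for Rpl21 and its long transcript. Entries with several alignments were counted in a row that names no gene, which held 61.2% to 66.2% of a library's column. The sources used here do not say how many of these came from members, so the level of each member with copies is uncertain.

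Levels per length were highest in the genes with the fewest copies. Without the 7 paralog rows and Rps19bp1, the 10 genes that share words with 0 to 2 pseudogenes had a median of 672 CPM per kb, and the other 66 genes a median of 18.3. The medians were 60.4 for 12 genes with 3 to 5 pseudogenes, 13.0 for 21 genes with 6 to 9, 15.9 for 22 genes with 10 to 19 and 20.1 for 11 genes with 20 or more. These bounds were chosen after the values were seen. Spearman's rho between level per kb and the number of pseudogenes was -0.38 over the 76 genes, which share libraries and are not independent. Between level per kb and the share of words in no other gene it was 0.27 over the same genes. Not every gene followed: Rps10, with 2 pseudogenes, stood at 4.13 CPM per kb. Rplp2, with 1 pseudogene, stood at 15.5, under the median of the other 66 genes, and Rpl14, also with 1, at 70.7.

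**Figure D5:**
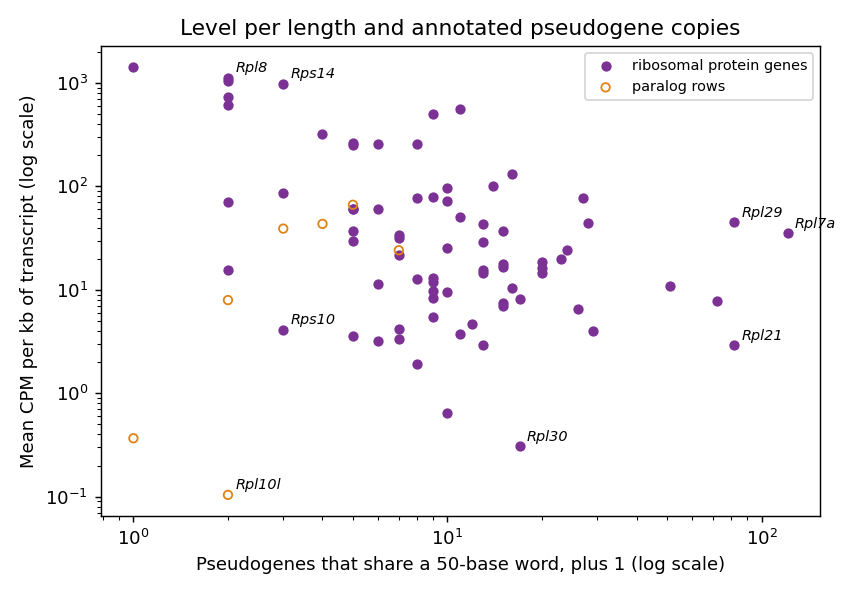
Each point is 1 of 83 ribosomal protein rows, with the number of annotated pseudogenes that share a 50-base word (plus 1) on the x axis and the mean CPM per kb of transcript on the y axis, both on log scales. Open orange circles are the 7 paralog rows, and Rpl8, Rpl4, Rps14 and Rps3, among the highest per kb, share words with 2 pseudogenes or fewer.

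The first 50 coding bases show what a mapper meets in genes with few and with many pseudogene copies. They are printed from the spliced transcript on the gene's strand, with the start codon in capitals and the GRCm38 position of the gene. In the first 3 genes, which are among the 5 highest per length, no other annotated gene holds the word. In the last 4, it is held whole by 18, 18, 12 and 10 other genes. These 4 stood at 2.93, 45.4, 18.6 and 35.4 CPM per kb. A word held by no other gene also occurs in lower members, such as Rps7 (8.15 CPM per kb) and Rpl7l1 (24.2). The printed genes are examples and do not show what sets the level.
Rpl8, chr15:76904078-76906314, plus strand: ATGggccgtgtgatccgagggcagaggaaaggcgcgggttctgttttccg
Rpl4, chr9:64173375-64178666, plus strand: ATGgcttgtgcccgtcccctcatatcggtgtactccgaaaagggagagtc
Rps3, chr7:99477896-99483738, minus strand: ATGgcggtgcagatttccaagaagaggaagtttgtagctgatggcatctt
Rpl21, chr5:146832890-146837032, plus strand: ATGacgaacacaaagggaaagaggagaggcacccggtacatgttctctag
Rpl29, chr9:106429454-106431568, plus strand: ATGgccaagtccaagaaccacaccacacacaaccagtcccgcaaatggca
Rpl35a, chr16:33056453-33060189, plus strand: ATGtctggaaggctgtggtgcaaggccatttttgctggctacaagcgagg
Rpl7a, chr2:26910764-26913318, plus strand: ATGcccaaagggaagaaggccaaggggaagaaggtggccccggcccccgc

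Over 83 members with a coding model, the first coding word was held by another gene for 62. Paralog pairs were unequally alike. Position by position, 4 of these 50 bases differ between Rpl39 and Rpl39l, 8 between Rpl36a and Rpl36al, 8 between Rpl10 and Rpl10l, 16 between Rps27 and Rps27l and 25 between Rpl22 and Rpl22l1. Of Rps27 only 1.35% of the words lie in no other gene, against 77.6% of Rps27l. The level was 8.42 CPM per kb for Rps27 and 66.5 CPM per kb for Rps27l. Both sequences are printed to show where the pair differs. The printed word of Rps27 is held by 1 other gene, so it does not mark Rps27 alone, while that of Rps27l is held by no other gene.
Rps27, chr3:90212522-90213651, minus strand: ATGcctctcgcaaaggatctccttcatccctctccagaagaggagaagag
Rps27l, chr9:66946086-66949516, plus strand: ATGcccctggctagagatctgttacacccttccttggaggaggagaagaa

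Some start sites of the members had pyrimidine runs near them. RefSeq lists 74 promoters (GRCm38.p6) for 63 of the members, each from 250 bases before to 50 bases after a start. A run of at least 8 C or T on the gene's strand, within 20 bases of the start on either side, was found in 31 of 74 (41.9%), against 16.05% of all 32851 promoters. On either strand of the 300 bases, CTTTCC was found in 51.35% against 26.6%, CCGGAAG, the core bound by ETS factors such as GABP, in 35.1% against 8.86%, and GCCATNTTG, the site of YY1, in 9.46% against 2.51%. A run of C and T can itself hold CTTTCC, and a match describes letters in a window, not binding. A run can also lie wholly before the start, outside the messenger, so the share with a run is not a share of TOP messengers. The windows below run from 15 bases before to 15 bases from the start, with the longest C or T run in capitals as far as it falls within them. The first 4 hold long runs, the last, Rplp0, none of 8 or more.
Rpl7a, chr2:26910792-26910821, plus strand: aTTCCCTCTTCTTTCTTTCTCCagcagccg
Rpl27a, chr7:109519180-109519209, plus strand: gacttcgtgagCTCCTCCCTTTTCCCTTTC
Rpl15, chr14:18270972-18271001, minus strand: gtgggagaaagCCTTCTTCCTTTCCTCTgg
Rpl14, chr9:120571502-120571531, plus strand: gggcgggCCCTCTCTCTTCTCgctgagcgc
Rplp0, chr5:115559452-115559481, plus strand: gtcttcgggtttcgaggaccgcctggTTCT
Of these genes, Rpl27a and Rpl14 were low in Treg 1 and Rpl15 and Rpl7a were highest there, so members with such runs did not all share 1 library order. Rpl27a stood at 0.1804, 6.24, 22.6 and 28.96 CPM in Treg libraries 1 to 4, against 32.2 and 10.7 CPM in Teff libraries 1 and 2. Rpl14 stood at 30.7, 101, 69.1 and 95.02 CPM in Treg libraries 1 to 4, against 66.1 and 66.7 CPM in Teff libraries 1 and 2.

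Genes that build and serve the ribosome were not called either. The list of 85 names, of which 82 have a row (Rack1 is listed under its older name Gnb2l1, and Nop53 and Efl1 were not analysed here), covered proteins fused to or bound to the ribosome, RNA polymerase I, nucleolar factors, chaperones and export factors, mTOR control and other TOP messengers. In edgeR 0 of 82 were called, against 0.0425% of all tested genes, and 1 (Bysl) had an unadjusted p under 0.05, against 4.73%. DESeq2 called 0, against 1.56%, and gave 1 unadjusted p under 0.05, against 6.04%. The log2 fold change was below 0 for 46 and above 0 for 36, with a median of -0.09. Bysl, which is needed for the maturation of the small subunit, stood at 39.5, 40.5, 44.5 and 83.3 CPM in Treg libraries 1 to 4, against 125 and 135 CPM in Teff libraries 1 and 2. All Treg libraries lay below both Teff libraries, at a log2 fold change of -1.32 ± 0.53. Its unadjusted edgeR p of 0.0392 became an adjusted p of 0.952.

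Rack1, listed as Gnb2l1, is bound to the small subunit as a scaffold and was lowest in Treg 1 and highest in Treg 4, as were the members in sum. It stood at 604, 1244, 802 and 1323 CPM in Treg libraries 1 to 4, against 1136 and 1243 CPM in Teff libraries 1 and 2, with a log2 fold change of -0.26 ± 0.39. Fau, which is made as a fusion with a ubiquitin-like protein, was low, with group means of 5.68 ± 4.05 CPM in Tregs (SD, n = 4) against 9.44 ± 1.18 CPM in Teffs (SD, n = 2). Of RNA polymerase I and its factors, 0 of 15 were called, and the 2 with the lowest p were Polr1c (0.91 ± 0.64) and Taf1b (0.59 ± 0.51), both with higher means in Tregs.

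Nucleolar proteins gave 0 calls among 28, with a median of -0.09. Ncl (nucleolin) had group means of 580.0 ± 222 CPM in Tregs (SD, n = 4) against 715 ± 31.99 CPM in Teffs (SD, n = 2), Npm1 (nucleophosmin) of 155 ± 52.99 CPM in Tregs (SD, n = 4) against 139 ± 6.91 CPM in Teffs (SD, n = 2) and Fbl (fibrillarin, which methylates ribosomal RNA) of 1.58 ± 0.963 CPM in Tregs (SD, n = 4) against 1.82 ± 1.26 CPM in Teffs (SD, n = 2). The lowest p in that group belonged to Pes1 (-1.21 ± 0.87) and Bop1 (-1.201 ± 1.03), partners in large-subunit maturation. Nmd3, the export adaptor of the large subunit, had a log2 fold change of 0.86 ± 0.62. Of the 13 genes of mTOR and TOP control, 0 were called, and the lowest p belonged to Rptor (-1.03 ± 0.91), the mTORC1 subunit raptor, and Eif4ebp2 (-1.24 ± 1.76). Myc, the driver of ribosome production, had group means of 38.2 ± 25.5 CPM in Tregs (SD, n = 4) against 38.7 ± 23.97 CPM in Teffs (SD, n = 2).

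Other TOP messengers only partly shared the order of the libraries. Of 14, Treg 1 was the lowest library for 9 and the highest for 3, and Treg 4 was the highest for 5. Over all tested genes at or above 10 CPM, Treg 1 was lowest for 30.6% and highest for 23.0%, and Treg 4 highest for 14.6%. Hnrnpa1, among the 14, had a mean under that level. Eef1a1, the elongation factor that delivers charged tRNA, stood at 1031, 1142, 1494 and 1816 CPM in Treg libraries 1 to 4, against 1606 and 1459 CPM in Teff libraries 1 and 2. Its log2 fold change was -0.16 ± 0.33, with Treg 1 lowest and Treg 4 highest as for the ribosomal proteins in sum. Tpt1 stood at 75.9, 49.9, 25.6 and 25.3 CPM in Treg libraries 1 to 4, against 33.8 and 31.2 CPM in Teff libraries 1 and 2, with Treg 1 the highest library, and had a log2 fold change of 0.44 ± 0.84. The lowest p of these 14 belonged to Eif3e (0.35 ± 0.38) and Eif4b (0.32 ± 0.36), both initiation factors.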

How the data were processed

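RNA of 4 Treg and 2 Teff libraries was counted per gene. Per the labels' protocols, RNA came off purification columns and libraries were made with a SMARTer low-input kit. The submitters' processing notes list build mm10, the counter HTSeq 0.6.1, TopHat2 2.0.12 with Bowtie2 2.1.0.0, CASAVA 1.8.2 and SAMtools 0.1.19.0. The sources used here give neither the annotation, nor the strand setting, nor the authors' test. The table the authors deposited holds raw whole-number counts in 15109 rows, of which 3 are counter rows that name no gene. These rows took 88.0% to 90.2% of a column and entered neither library sizes nor tests. The authors deposited a log2 fold change and mean log2 CPM per row, per the file headers, and a p-value with an FDR per row, also per the file headers.

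Counts were fitted in R 4.3.3 with edgeR 4.0.16 (limma 3.58.1): filterByExpr with a smallest count of 10, TMM scaling, and the quasi-likelihood F test on group alone over all 6 libraries. Calls needed a p under 0.05 after Benjamini-Hochberg adjustment over all 11775 tested genes. The standard error is the fold change over the square root of F. The biological coefficient of variation was 1.205, and an exact permutation test of 1 value cannot go below p = 0.0667 (two-sided) with these groups. Alternatives were DESeq2 1.42.0, other scalings and filters, each library left out, a block on the replicate number and a count without the top 3 genes.

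Words of 50 bases came from 1 GENCODE M21 transcript per gene (paired with a curated RefSeq transcript, best APPRIS rank, then shortest) and were searched in transcripts of genes at other loci on both strands. Gene models were found for all 84 members, and a gene's length is that of this transcript. The named genes are those with a listed role, paralogs, Rps19bp1, the 5 highest and 5 lowest by fold change and by level per length, genes with no counts in a group, and for the other lists up to 2 per role by p plus 9 fixed names. The members and lists were chosen with earlier results of these data known. Genes outside the rule were named after their values were seen, and a few genes the rule names are not reported here.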

Additional observations from a re-analysis of the deposited data

Results flagged for a closer look

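In the 4 Treg libraries, each named gene was searched for 1 library that stood far from the other 3 relative to the group's whole range. Of 56 groups of values examined, 7 had such a library, and chance flags about 1 group in 20. For 3 of the 7 (Rps4l, Rpl10l and Rpl39l) the other 3 Treg libraries were at 0, where any count meets the rule, so the number 7 is not to be read against that share. Rpl19 stood at 46.1 CPM in Treg 4, against 7.20 CPM or less in the other Treg libraries. Rps6 stood at 62.1 CPM in Treg 4, against 17.2 to 21.8 CPM in the others. Bysl stood at 83.3 CPM in Treg 4, against 39.5 to 44.5 CPM in the others. Rps4l stood at 20.9 CPM in Treg 3 and at 0 in the other Treg libraries. Rps23 was at 0 CPM in Treg 2 and at 3.57 to 4.21 CPM in the others. Rpl10l at 0.640 CPM and Rpl39l at 0.320 CPM were counted among Tregs in Treg 2 alone, from 4 and 2 counts. The summed share of the members was examined in the same way and no library stood apart.

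The row Rpl14-ps1, a pseudogene that the rule leaves out, had a mean of 259.8 CPM over the 6 libraries, above its parent gene Rpl14 at 71.4 CPM. Its counts were 682, 1841, 1355 and 2643 in Treg 1 to Treg 4 and 2072 and 1302 in Teff 1 and Teff 2. The ratio of its counts to those of Rpl14 was 2.93 to 4.01 in Tregs and 4.15 and 3.78 in Teffs. Its log2 fold change was -0.03 ± 0.46 (SE).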

How the results depend on the processing

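No alternative that was run called a ribosomal protein gene or a gene of the assembly and translation list: the counts of calls were 0 with 1 library left out (0 to 0), under other scalings and filters, in DESeq2, with the replicate block and at an adjusted p of 0.01. Over all tested genes the calls were 0 in 5 of the 6 fits with 1 library left out and 2 without Teff 1, so 0 calls among the members say nothing there. They were 5 to 19 over all genes under other scalings and filters, 15 with the block and 184 in DESeq2. With 1 library left out the median log2 fold change of the members was -0.35 to 0.01, that of the assembly and translation list -0.17 to -0.03, and the ratio of the summed share 0.735 to 0.947. Upper-quartile scaling moved the median of all tested genes from 0.07 to -0.04 and that of the members to -0.26, with 71.25% of members below 0 in place of 61.25%. Under that scaling 9 members in place of 4 had groups that do not overlap (15.7% of all tested genes), and 6 on plain totals (15.3%). Over members of which at least 50% of the words lie in no other gene, an alternative chosen after seeing the data, the median was -0.16 and the ratio 0.8292. The planned version with words unique in the genome was not run.

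The labels do not say whether libraries with the same replicate number belong together. The deviations of same-numbered libraries from their group means correlated at -0.04 (replicate 1) and 0.15 (replicate 2). Treg 3 with Teff 1, which differ in number, reached 0.33. With 2 Teff libraries the deviations of Teff 1 and Teff 2 mirror each other, so these values cannot decide on a pairing. With the block on the replicate number, which takes Treg 3 and Treg 4 out of the comparison, the members' median was -0.57 against -0.64 for all tested genes, with 0 called and 69 of 80 below 0, and the assembly and translation list had a median of -0.40. Signs of uncalled log2 fold changes turned under this block for Rps27a (-3.10), Rps23 (-1.95), Rpl12 (-0.96), Rpl38 (-0.47), Rpl22 (-0.43), Rplp1 (-0.42), Npm1 (-0.33), Rpl10a (-0.27), Rps14 (-0.19) and Rps13 (-0.11).

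Other uncalled signs turned for genes close to 0. Upper-quartile scaling gave -0.10 for Rplp1 and -0.11 for Rps14, the mean CPM filter of 10 gave -0.026 and -0.030, and no filter gave -0.0024 for Rps14. DESeq2's size factors gave 0.0083 for Myc and DESeq2 0.0080. With 1 library left out the log2 fold change turned, with these ranges: -0.37 to 0.0076 (Rps3), -0.13 to 0.17 (Rps14), -0.36 to 0.11 (Rps20), -0.39 to 0.072 (Rplp0), -0.13 to 0.24 (Rplp1), -0.64 to 0.27 (Rpl7l1), -0.59 to 0.0066 (Rpl29) and -0.87 to 0.046 (Rps6). Lower or more variable genes ranged over -0.62 to 1.22 (Rpl10a), -1.16 to 0.27 (Rpl11), -0.57 to 0.041 (Rpl36al), -0.55 to 1.15 (Rps13), -0.36 to 1.08 (Rps23), -0.035 to 1.19 (Rps27a), -0.78 to 0.73 (Fbl) and -0.58 to 0.79 (Myc). The cause was not tested. In all, 45 of 619 values of single genes under an alternative turned sign and the other 574 kept it, all of them uncalled.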

Other observations

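Besides Rps4l, the table holds 5 rows whose symbols mark ribosomal protein pseudogenes, and apart from Rpl14-ps1 all were low. Rps15a-ps6 stood at 0.541, 2.56, 3.33 and 10.6 CPM in Treg libraries 1 to 4, against 5.96 and 13.2 CPM in Teff libraries 1 and 2. Rps19-ps3 stood at 7.04, 3.84, 3.33 and 0.571 CPM in Tregs, against 8.61 and 1.74 CPM in Teffs. Rps15a-ps4 stood at 7.94, 3.36, 1.58 and 6.28 CPM in Tregs, against 2.12 and 1.94 CPM in Teffs. Rpl31-ps12 had 1 count, in Teff 2. Rps19-ps3 was highest in Teff 1 and Treg 1, while Rps19 itself was highest in Treg 4 and Treg 2.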
